A study of Mus musculus with 12 samples.

Results

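The transcripts of 10 genes of the Hippo-YAP-TEAD pathway were followed in mouse embryonic stem (mES) cells as the chromatin remodeler BRG1 was removed in steps. The genes were chosen by symbol: Yap1 and Wwtr1 (coactivators), Tead1, Tead2, Tead3 and Tead4 (DNA-binding factors), and Ctgf, Cyr61, Amotl2 and Lats2 (target genes). All 10 symbols were found among the 24421 genes in the count table, and all 10 were among the 11378 genes tested. The cells were labelled as strain B6, which the methods of the study give as C57BL/6J, were kept in 2i and LIF, and every library, the controls included, came from cells in which a degron tag had been knocked in at Brg1. The tagged line grew from a colony founded by 1 cell, so clonal features are shared by all libraries. Cells received 0, 0.3, 1, 3, 10 or 100 nM dTAG13 for 24 h, and 2 libraries were made for each of the 6 conditions, 12 in all. dTAG13 is a bifunctional small molecule that brings the tagged protein to the ubiquitin-proteasome system. For the 0 nM libraries the labels give no treatment, and the study describes the 0 nM condition as DMSO, the vehicle.

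In the Hippo pathway, the LATS kinases, downstream of MST, phosphorylate YAP (gene Yap1) and TAZ (gene Wwtr1) and hold them in the cytoplasm. Unphosphorylated YAP and TAZ enter the nucleus, where they lack a DNA-binding domain of their own and act through the TEAD factors on genes such as Ctgf and Cyr61. In the early mouse embryo, TEAD4 with YAP directs the outer cells toward trophectoderm, the layer that forms the placenta, while Hippo signaling keeps YAP out of the nucleus in the inner cells from which ES cells derive. Transcript levels do not show phosphorylation or location of YAP and TAZ.

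Total counts ran from 4663484 to 6375582 read pairs per library. The biological coefficient of variation between libraries of a condition was 6.20% over the tested genes. This figure pools all doses, and the raw agreement of the 2 libraries differed between doses. With scaling by total counts only, chi-square per degree of freedom between the 2 libraries was 4.49 (0 nM), 2.05 (0.3 nM) and 6.54 (1 nM). It was 18.4 (3 nM), 10.9 (10 nM) and 2.18 (100 nM). The gene Rn45s took 10.5% and 19.0% of the counts in the 3 nM libraries, and 10.5% to 19.4% over all libraries. The chi-square values include Rn45s, so they do not give the agreement over the other genes, and the part of Rn45s in them was not computed. Smarca4, the gene of BRG1, stood between 63.5 and 71.3 RPKM (read pairs relative to exon length and library size) in all 12 libraries. As dTAG13 removes the protein and not the transcript, this gene does not check the labels. The summed level of 5 ES cell markers ranged from 1039 to 1204 RPKM. Single markers in this sum moved in both directions at 100 nM against 0 nM. Nanog had a log2 fold change of 0.52 (adjusted p = 1.79e-08 by edgeR). Pou5f1 and Esrrb had -0.17 each (adjusted p = 0.0301 and 0.0433 by edgeR). Sox2 (0.19) and Zfp42 (0.12) had an adjusted p over 0.05. The 7 fibroblast markers summed to between 0.576 and 2.62 RPKM in the 12 libraries and the 5 primitive endoderm markers to between 0.721 and 2.23 RPKM, and none of these 12 markers reached the level needed for testing. The primitive endoderm sum was 1.27 and 1.19 RPKM in the 0 nM libraries and 2.23 and 1.91 RPKM in those of 100 nM, above every other library, with Pdgfra going from 3 and 6 counts to 28 and 20. The 5 trophoblast markers summed to 3.49 and 3.59 RPKM (0 nM) and to 6.49 and 7.57 RPKM (100 nM), and without Cdx2 the other 4 summed to 2.79 and 3.19 RPKM (0 nM) and to 2.63 and 1.91 RPKM (100 nM). The part of these marker genes in the results below was not tested. In bulk RNA, fewer cells of a type and less RNA per cell cannot be told apart. The library numbers in the labels of the 0.3 and 3 nM samples repeat numbers of the other 8, so these 4 libraries may be a separate set. No batch is named in the labels, and results are therefore also given within the 8 libraries and for 3 against 0.3 nM.

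At 0 nM, the members covered a wide range of levels per length. Amotl2 was highest with 46.8 ± 2.93 RPKM (SD, n = 2, as for all such values), followed by Tead2 (31.4 ± 1.25), Yap1 (28.6 ± 2.00), Ctgf (21.3 ± 0.565) and Tead1 (19.0 ± 0.0338). Cyr61 stood at 13.7 ± 2.10 RPKM, Tead4 at 11.7 ± 1.86 RPKM and Wwtr1 at 9.94 ± 0.304 RPKM, and Lats2 (2.41 ± 0.0491 RPKM) and Tead3 (1.96 ± 0.783 RPKM) were lowest. In this order the libraries of Cyr61 overlapped those of Tead4, and those of Lats2 overlapped those of Tead3, so these neighbors in the order did not differ beyond their spread. The other neighbors did not overlap, although the nearest libraries of Tead4 and Wwtr1 were at 10.4 and 10.2 RPKM.

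Tead4 and Cyr61 fell with rising dTAG13, whereas Yap1, Tead3 and Lats2 passed no test at an adjusted p under 0.05. Doses were set against the 0 nM libraries with the quasi-likelihood test of edgeR, and a gene was called when its Benjamini-Hochberg adjusted p over all tested genes was under 0.05 and its fold change over 1.5. No member was called at 0.3, 1 or 3 nM, doses at which 0.0176%, 0.914% and 3.9% of all tested genes were called. At an unadjusted p under 0.05, 0, 2 and 3 members passed at these doses with edgeR's quasi-likelihood test, 0, 1 and 2 with its likelihood ratio test and 0, 0 and 2 with DESeq2's Wald test. The share of all tested genes at that unadjusted threshold was not computed, so these counts have no background beside them. At an adjusted p under 0.05 by edgeR with no fold minimum, 0 members passed, beside 8, 261 and 1069 of the 11378 tested genes. At 10 nM, 2 of 10 members were called lower and 0 higher, beside 4.92% lower and 3.01% higher among all tested genes. At 100 nM, the same 2 genes, Tead4 and Cyr61, were called lower and 0 members higher, where 6.83% of all genes were called lower and 4.37% higher. Without the fold minimum, 4 members were lower and 1 higher at 10 nM (10.1% and 7.87% of all genes), and 5 were lower and 2 higher at 100 nM (13.3% and 10.1% of all genes). The median log2 fold change of the 10 members at 100 nM was -0.31, and that of all tested genes was 0. From 0.3 to 3 nM, 0 members were called (1.94% of all genes), and 3 had an unadjusted p under 0.05 with edgeR's quasi-likelihood test, 3 with the likelihood ratio test and 1 with DESeq2. For these unadjusted counts too the share of all tested genes was not computed. At an adjusted p under 0.05 by edgeR, 0 members and 604 of all tested genes passed in that step.

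**Figure D1:**
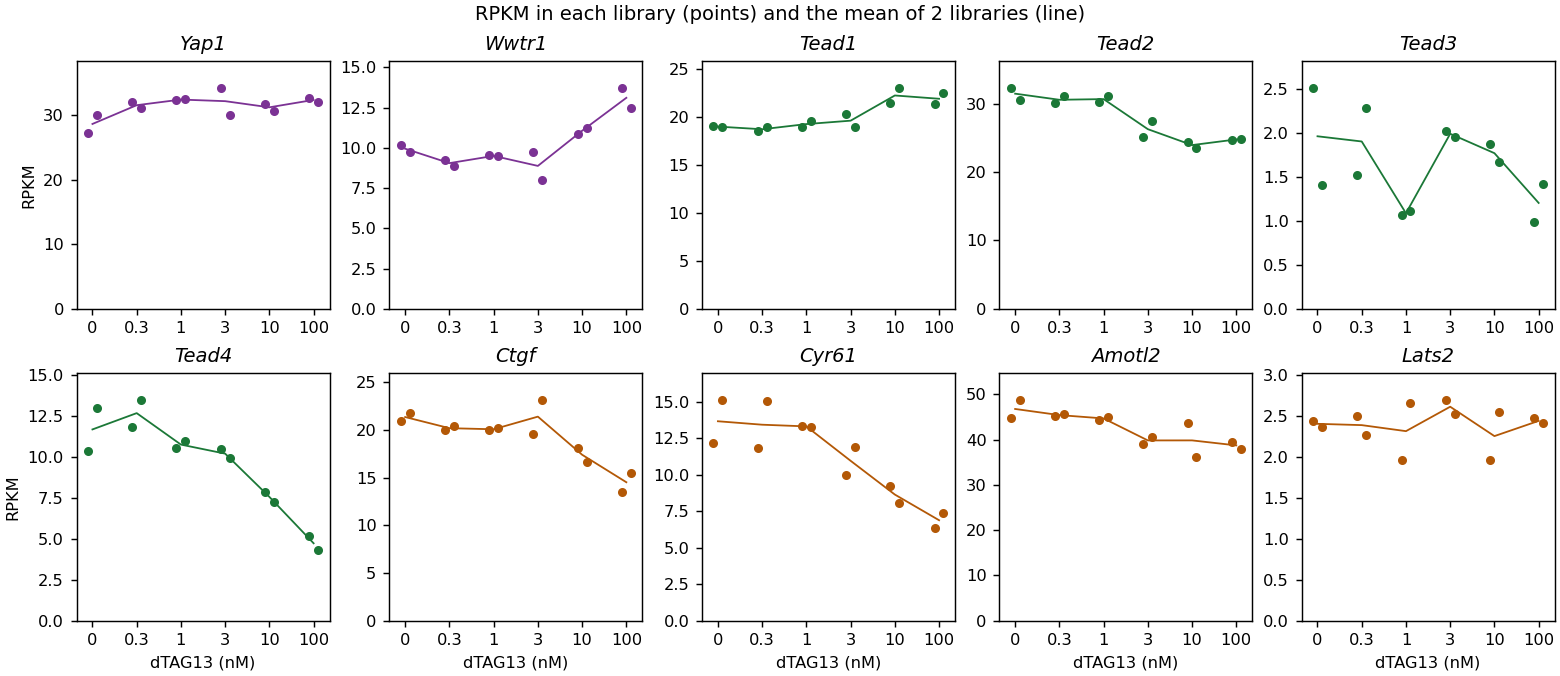
RPKM of the 10 genes (y axis, from 0) at each dTAG13 dose in nM (x axis, doses in order and not to scale), with 1 point per library and a line through the mean of 2 libraries. The mean of Tead4 runs from 11.7 RPKM in the 0 nM libraries down to 4.74 RPKM at the highest dose, and that of Cyr61 from 13.7 to 6.89 RPKM, while Lats2 lies between 1.96 and 2.70 RPKM throughout.

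A linear contrast over the 6 doses in order used all 12 libraries in 1 test per gene. By it, 5 members were lower and 2 higher with dose at an adjusted p under 0.05 from edgeR, and 17.3% of all tested genes were lower and 14.9% higher. Over all genes these were 1969 lower and 1691 higher, and without normalization factors 1317 lower and 1947 higher. The 7 members kept their direction and an adjusted p under 0.05 in all 20 alternatives of this test. The members that fell were Tead4, Cyr61, Ctgf, Tead2 and Amotl2, and those that rose were Wwtr1 and Tead1.

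Neither coactivator gene was lower at 100 nM. Yap1 (mm10 chromosome 9, 7932001 to 8004596, minus strand) had 27.2 and 30.0 RPKM (0 nM), 32.0 and 31.0 (0.3 nM), 32.3 and 32.4 (1 nM), 34.2 and 30.0 (3 nM), 31.7 and 30.6 (10 nM) and 32.6 and 32.0 (100 nM). All 10 libraries with dTAG13 lay above both 0 nM libraries, by a margin that was small at 3 nM (30.03 against 30.01 RPKM). On the log2 scale the difference at 100 nM was 0.18 ± 0.077 (SE, 95% interval 0.026 to 0.33, adjusted p = 0.101 by edgeR's quasi-likelihood test), and the dose-order trend did not pass either (adjusted p = 0.175 by edgeR). Yap1 shares 116 exonic bases with the antisense transcript gene Gm20416, and the counting did not use strand.

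Wwtr1, which encodes TAZ (chromosome 3, 57455644 to 57575910, minus strand), rose at the highest dose. Its RPKM were 10.2 and 9.73 (0 nM), 9.22 and 8.88 (0.3 nM), 9.53 and 9.46 (1 nM), 9.76 and 7.99 (3 nM), 10.9 and 11.2 (10 nM) and 13.7 and 12.5 (100 nM). The 2 libraries at 100 nM were above all others. At 100 nM the level was 132% of that at 0 nM, a log2 fold change of 0.40 ± 0.10 (SE, adjusted p = 0.00498 by edgeR), which is 1.32-fold and so under the fold minimum. The trend was 0.079 log2 per dose step (adjusted p = 0.000963 by edgeR). The adjusted p at 100 nM was over 0.05 without 0 nM replicate 2 (log2 fold change 0.37, adjusted p = 0.0584 by edgeR) and without 100 nM replicate 1 (0.33, adjusted p = 0.0843 by edgeR). Within the summed RPKM of both coactivators, Wwtr1 made up 25.8% ± 1.93 at 0 nM, 22.3% ± 0.0866 at 0.3 nM and 28.8% ± 1.11 at 100 nM (SD, n = 2).

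Among the TEAD genes, 1 fell by more than 1.5-fold, 1 fell and 1 rose by less, and Tead3, at low counts, passed no test. Tead4 (chromosome 6, 128227143 to 128300813, minus strand) is the family member required for trophectoderm. Its RPKM were 10.4 and 13.01 (0 nM), 11.9 and 13.5 (0.3 nM), 10.6 and 10.98 (1 nM), 10.5 and 9.94 (3 nM), 7.90 and 7.25 (10 nM) and 5.17 and 4.30 (100 nM), from 81 to 246 counts. The libraries up to 3 nM overlapped those at 0 nM, and those at 10 and 100 nM lay below every library of the lower doses and did not overlap each other. The mean at 10 nM was 64.7% and that at 100 nM 40.5% of the 0 nM mean. The log2 fold change was -0.63 ± 0.13 (SE, adjusted p = 0.00144 by edgeR) at 10 nM and -1.31 ± 0.14 (SE, adjusted p = 1.47e-07 by edgeR) at 100 nM.

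The last dose step was tested without the 0 nM libraries. From 10 to 100 nM, Tead4 fell by 0.68 on the log2 scale (standard error 0.15, adjusted p = 0.0137 by edgeR) and was the 1 member called in that step, in which 0.791% of all tested genes were called lower and 0.193% higher. The trend was -0.25 log2 per dose step (adjusted p = 5.99e-09 by edgeR). Within the 8 libraries of 0, 1, 10 and 100 nM the log2 fold change at 100 nM was -1.31 (adjusted p = 1.37e-07 by edgeR), and from 0.3 to 3 nM it was -0.31 ± 0.13 (SE, adjusted p = 0.182 by edgeR). The call at 100 nM held in all 21 alternatives, with adjusted p from 4.17e-18 to 6.25e-05. The call at 10 nM did not: it was lost without 0 nM replicate 2 (log2 fold change -0.46, adjusted p = 0.0641 by edgeR), without 10 nM replicate 2 (-0.57, adjusted p = 0.0225, under the fold minimum) and without normalization factors (-0.57). The call from 10 to 100 nM was lost without 10 nM replicate 1 (-0.61, adjusted p = 0.0987 by edgeR) and without 100 nM replicate 2 (-0.55, adjusted p = 0.258 by edgeR).

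Tead1 (chromosome 7, 112679320 to 112906805, plus strand), a broadly expressed family member, rose. Its RPKM were 19.0 and 18.9 (0 nM), 18.5 and 18.9 (0.3 nM), 18.9 and 19.6 (1 nM), 20.3 and 18.9 (3 nM), 21.4 and 23.0 (10 nM) and 21.3 and 22.5 (100 nM). The 4 libraries at 10 and 100 nM were above all 8 others. Its log2 fold changes were 0.23 (adjusted p = 0.0155 by edgeR) at 10 nM and 0.21 ± 0.065 (SE, adjusted p = 0.0231 by edgeR) at 100 nM, and the trend was 0.051 log2 per dose step (adjusted p = 0.000728). The adjusted p at 100 nM was over 0.05 without the filter on low values (log2 fold change 0.12, adjusted p = 0.285 by edgeR) and without normalization factors (0.25, adjusted p = 0.056 by edgeR). It was 0.0952 and 0.114 by edgeR without 0 nM replicate 1 and 2, and 0.189 without 100 nM replicate 2.

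Tead2 (chromosome 7, 45215753 to 45233619, plus strand) had the highest level among the 4 TEAD genes in every library. It had 32.3 and 30.6 RPKM (0 nM), 30.0 and 31.1 (0.3 nM), 30.2 and 31.1 (1 nM), 25.1 and 27.4 (3 nM), 24.4 and 23.5 (10 nM) and 24.7 and 24.8 (100 nM). Both libraries at 3 nM were below those of all lower doses, and the 100 nM libraries were slightly above the 10 nM libraries. At 3 nM the log2 fold change of Tead2 was -0.26 ± 0.091 (SE, adjusted p = 0.0795 by edgeR). From 0.3 to 3 nM it was -0.22 ± 0.092 (SE, adjusted p = 0.192 by edgeR). Log2 fold changes of Tead2 were -0.39 (adjusted p = 0.0029 by edgeR) at 10 nM and -0.34 ± 0.090 (SE, adjusted p = 0.00596 by edgeR) at 100 nM, and the difference from 10 to 100 nM was 0.05 ± 0.093 (SE, adjusted p = 0.899). The trend was -0.086 log2 per dose step (adjusted p = 8.99e-05 by edgeR). Without 0 nM replicate 1 the log2 fold change of Tead2 at 100 nM was -0.30 (adjusted p = 0.0649 by edgeR).

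Tead3 (chromosome 17, 28331673 to 28350805, minus strand) had only 18 to 44 counts per library. It stood at 2.52 and 1.41 RPKM (0 nM), 1.53 and 2.28 (0.3 nM), 1.06 and 1.11 (1 nM), 2.03 and 1.95 (3 nM), 1.87 and 1.67 (10 nM) and 0.992 and 1.42 (100 nM). The 2 control libraries lay further apart than the libraries of any other dose. The log2 fold change at 100 nM was -0.69 with a standard error of 0.34 (95% interval -1.35 to -0.03, adjusted p = 0.146 by edgeR), and it moved between -1.06 and -0.22 as single libraries were left out. A change of this size did not pass with these counts and this spread, and no detection limit was computed. The largest drop was at 1 nM, where both libraries lay below both controls (log2 fold change -0.84 ± 0.35, SE, adjusted p = 0.259 by edgeR).

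The 4 TEAD genes changed unequally, and the composition of their summed RPKM shifted. The sum was 64.2 and 63.9 RPKM (0 nM), 55.5 and 55.4 (10 nM) and 52.1 and 53.0 (100 nM). The share of Tead4 was 16.2% and 20.4% (0 nM), 14.2% and 13.1% (10 nM) and 9.91% and 8.13% (100 nM). The share of Tead1 was 29.6% in both 0 nM libraries and 40.8% and 42.4% (100 nM), while that of Tead2 was 49.1% ± 1.79 and 47.1% ± 0.429 (SD, n = 2). The ratio of Tead1 to Tead4, which does not depend on library scaling, was 1.83 and 1.46 (0 nM), 2.71 and 3.18 (10 nM) and 4.12 and 5.22 (100 nM), without overlap between these 3 doses. With 2 libraries against 2, an exact two-sided permutation test cannot go below p = 0.333, so the shares and ratios carry no test of their own.

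**Figure D2:**
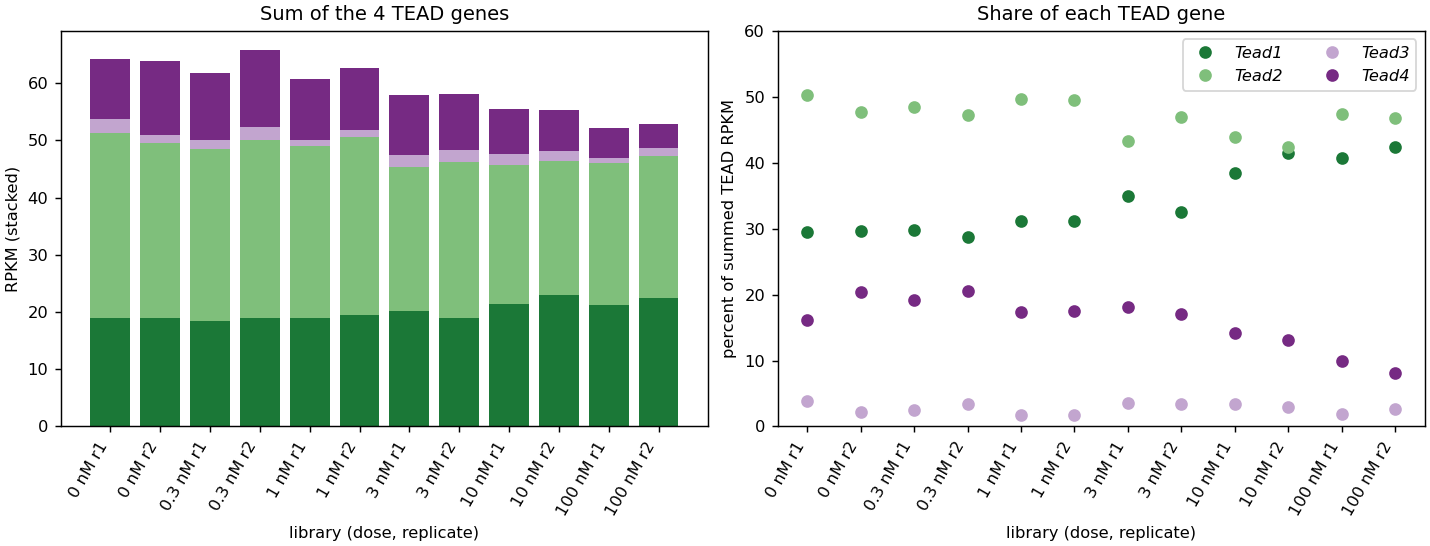
Left, RPKM of Tead1, Tead2, Tead3 and Tead4 stacked for each of the 12 libraries (x axis: dTAG13 dose and replicate). Right, the share of each gene in that sum in percent, in which Tead4 goes from 16.2% and 20.4% (0 nM) to 9.91% and 8.13% (100 nM) and Tead1 from 29.6% to 40.8% and 42.4%.

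The target genes divided into Cyr61 and Ctgf, with the larger drops, Amotl2 with a smaller one, and Lats2 with none detected. Cyr61 and Ctgf encode secreted matricellular proteins of the CCN family, Amotl2 an angiomotin that binds YAP at junctions, and Lats2 the kinase that phosphorylates YAP, so that the last 2 are also part of negative feedback. The core promoters of Cyr61 (now Ccn1), Amotl2 and Lats2 are shown because they are the target genes with a start-site window and carry a TEAD motif. The windows hold 250 bases before and 50 after the start site, 5′ to 3′ in the sense of the gene, from RefSeq on GRCm38.p6. Capitals mark the TEAD motif GGAATG on either strand (CATTCC where it lies on the opposite strand).
Cyr61, chr3:145649936-145650235, minus strand: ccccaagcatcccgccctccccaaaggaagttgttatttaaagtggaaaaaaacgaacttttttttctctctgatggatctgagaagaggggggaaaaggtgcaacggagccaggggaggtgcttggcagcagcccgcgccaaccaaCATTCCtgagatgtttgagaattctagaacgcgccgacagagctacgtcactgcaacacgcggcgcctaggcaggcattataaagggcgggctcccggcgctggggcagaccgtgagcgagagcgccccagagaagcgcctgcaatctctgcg
Amotl2, chr9:102717554-102717853, plus strand: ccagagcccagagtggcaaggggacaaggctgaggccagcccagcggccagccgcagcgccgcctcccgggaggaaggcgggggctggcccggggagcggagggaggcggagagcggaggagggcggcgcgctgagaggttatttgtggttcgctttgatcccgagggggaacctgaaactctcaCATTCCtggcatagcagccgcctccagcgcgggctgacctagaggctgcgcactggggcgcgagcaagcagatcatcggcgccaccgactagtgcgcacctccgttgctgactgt
Lats2, chr14:57746074-57746373, minus strand: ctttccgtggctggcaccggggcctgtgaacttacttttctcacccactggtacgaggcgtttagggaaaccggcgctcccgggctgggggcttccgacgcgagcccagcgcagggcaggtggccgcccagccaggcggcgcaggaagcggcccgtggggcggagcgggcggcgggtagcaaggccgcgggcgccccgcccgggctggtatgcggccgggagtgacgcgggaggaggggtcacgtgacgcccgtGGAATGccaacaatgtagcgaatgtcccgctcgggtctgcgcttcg
The match began 103 bases before the start site in Cyr61, 65 before it in Amotl2 and at base 5 after it in Lats2, counted along the gene. Windows were found for 7 members, of which Wwtr1 and Lats2 have 2 and Tead3 has 3. A TEAD match was in at least 1 window of 6 of these members (all but Tead2), and in at least 1 window of 16.6% of 27025 genes with windows. The 2 Wwtr1 windows overlap and hold the same match. Per window, 14.7% of 32851 windows held the motif. The AP-1 motif TGANTCA on either strand was in 0 member windows, so that no 2 motifs overlapped, and in 7.81% of all windows. Yap1 and Wwtr1, which were not lower, had matches too, and another Lats2 window had none. A match of letters does not show binding.

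Cyr61 (mm10 chromosome 3, 145646971 to 145649985, minus strand) fell with dose. It had 12.2 and 15.2 RPKM (0 nM), 11.8 and 15.1 (0.3 nM), 13.4 and 13.3 (1 nM), 10.0 and 11.9 (3 nM), 9.21 and 8.09 (10 nM) and 6.37 and 7.42 (100 nM), from 78 to 189 counts. The libraries at 0.3 and 1 nM overlapped those at 0 nM, and from 3 nM upward all libraries were below both controls. The mean at 10 nM was 63.3% and that at 100 nM 50.4% of the 0 nM mean.

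For Cyr61, log2 fold changes were -0.32 ± 0.16 (SE, adjusted p = 0.237 by edgeR) at 3 nM, -0.66 ± 0.16 (SE, adjusted p = 0.00404) at 10 nM and -0.99 ± 0.16 (SE, adjusted p = 5.07e-05) at 100 nM. From 10 to 100 nM it was -0.33 ± 0.18 (SE, adjusted p = 0.485 by edgeR). The trend was -0.20 log2 per dose step (adjusted p = 1.95e-06 by edgeR). The call at 100 nM held in all 21 alternatives (adjusted p from 2.29e-09 to 0.00432), within the 8 libraries too (-0.99, adjusted p = 2.43e-05 by edgeR). At 10 nM the call was lost without 0 nM replicate 2 (-0.50, adjusted p = 0.0995 by edgeR) and without 10 nM replicate 2 (-0.57, adjusted p = 0.0517 by edgeR).

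Ctgf (chromosome 10, 24595442 to 24598682, plus strand) stood at 94.0% to 100.2% of its 0 nM mean up to 3 nM and was lower at 100 nM. Its RPKM were 20.9 and 21.7 (0 nM), 20.0 and 20.4 (0.3 nM), 20.0 and 20.2 (1 nM), 19.6 and 23.2 (3 nM), 18.1 and 16.7 (10 nM) and 13.5 and 15.5 (100 nM). The libraries at 10 nM were below those of all lower doses, and those at 100 nM below those at 10 nM. At 100 nM the mean was 68.0% of that at 0 nM, a log2 fold change of -0.56 ± 0.11 (SE, adjusted p = 0.000395 by edgeR), which is 1.47-fold and just short of the fold minimum. Without the filter on low values it was -0.64 and without 100 nM replicate 2 -0.66, and in both cases Ctgf was called. At 10 nM the log2 fold change was -0.29 (adjusted p = 0.058 by edgeR), and the trend was -0.095 log2 per dose step (adjusted p = 0.000238). Ctgf shares 665 exonic bases with the antisense transcript gene Gm15270, whose reads cannot be told apart from those of Ctgf without strand.

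Amotl2 (chromosome 9, 102717804 to 102733417, plus strand) had 44.7 and 48.8 RPKM (0 nM), 45.3 and 45.6 (0.3 nM), 44.4 and 45.0 (1 nM), 39.1 and 40.6 (3 nM), 43.6 and 36.1 (10 nM) and 39.5 and 38.0 (100 nM). The 6 libraries from 3 nM upward were below all 6 at the lower doses. From 0.3 to 3 nM the log2 fold change of Amotl2 was -0.19 ± 0.077 (SE, adjusted p = 0.174 by edgeR). Against 0 nM, Amotl2 differed on the log2 scale by -0.23 at 3 nM (adjusted p = 0.0588 by edgeR), -0.23 at 10 nM (adjusted p = 0.0358) and -0.27 at 100 nM (standard error 0.076, adjusted p = 0.0101), and the trend was -0.060 log2 per dose step (adjusted p = 0.000764). The adjusted p at 100 nM was over 0.05 without normalization factors (0.0826 by edgeR), without 0 nM replicate 2 (log2 fold change -0.21, adjusted p = 0.148 by edgeR) and without 100 nM replicate 2 (-0.25, adjusted p = 0.0973 by edgeR).

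Lats2 (chromosome 14, 57689662 to 57746123, minus strand) had 2.44 and 2.37 RPKM (0 nM), 2.51 and 2.28 (0.3 nM), 1.97 and 2.67 (1 nM), 2.70 and 2.53 (3 nM), 1.96 and 2.55 (10 nM) and 2.47 and 2.41 (100 nM), from 65 to 89 counts. The libraries of each dose overlapped those of the next. The log2 fold change at 100 nM was 0.02 ± 0.19 (SE, 95% interval -0.35 to 0.39, adjusted p = 0.958 by edgeR), and its sign was negative in some alternatives. The interval leaves room for changes as large as that of Amotl2. Lats2 shares 2955 exonic bases with Gm49361 on the same strand, a gene that has no row of its own in the counts.

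**Figure D3:**
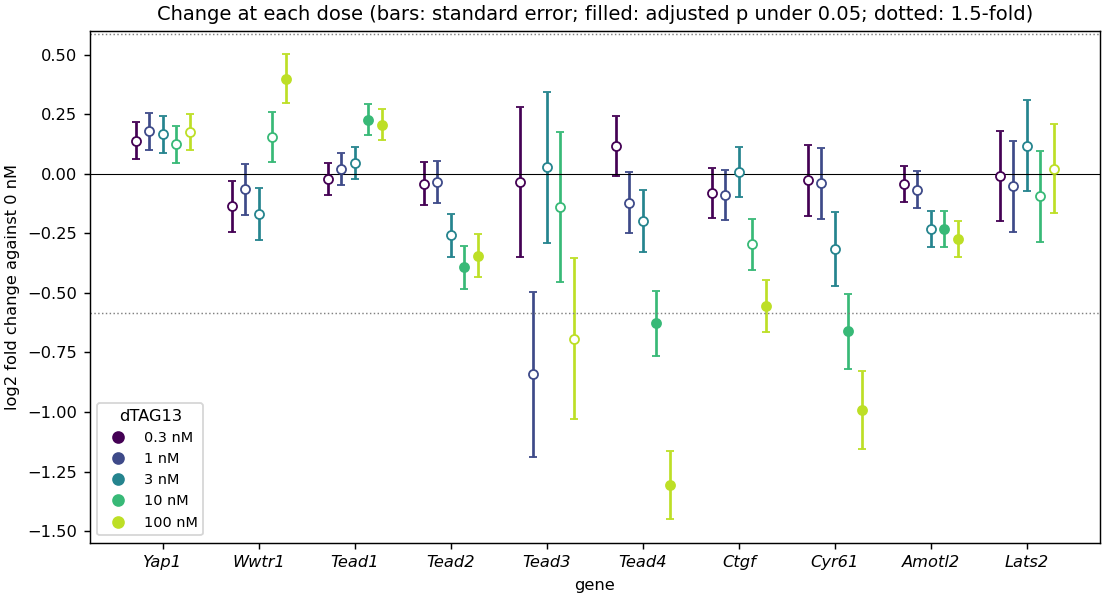
Log2 fold change against 0 nM (y axis) of each gene (x axis) at 0.3, 1, 3, 10 and 100 nM dTAG13, with bars of 1 standard error, points filled where the edgeR adjusted p was under 0.05 and dotted lines at a fold change of 1.5. At 100 nM the values run from -1.31 for Tead4 to 0.40 for Wwtr1, and Tead3 has the widest bars.

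By their means alone, the members moved at unlike doses, although no member was called at 3 nM. At 3 nM, Amotl2 stood at 85.1% and Tead2 at 83.5% of their 0 nM means, close to their levels at 100 nM (82.8% and 78.7%). Tead4 was at 87.3% and Cyr61 at 80.2% at 3 nM, and at 40.5% and 50.4% (100 nM). Ctgf was at 100.2% at 3 nM and at 68.0% at 100 nM. For Tead4, 48.1% of the log2 change seen at 100 nM was present at 10 nM, for Ctgf 53.0%, for Cyr61 66.8% and for Amotl2 84.9%. Differences between genes in these shares were not tested.

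The rest of the pathway was described by gene lists, at 100 nM against 0 nM and with the same call, which 6.83% of all tested genes met as lower and 4.37% as higher. Of 25 genes of the Hippo kinase core and the STRIPAK phosphatase complex that opposes it, 24 were tested, 1 was called lower and 0 higher, and the median log2 fold change was -0.02. The gene called was Map4k1, a kinase of the MAP4K family that can phosphorylate LATS, with 10.9 ± 1.07 RPKM at 0 nM and 6.74 ± 0.707 at 100 nM (log2 fold change -0.69, adjusted p = 0.000475 by edgeR). At an adjusted p under 0.05 with no fold minimum, 2 of the 24 were lower and 3 higher, beside 13.3% and 10.1% of all genes. These shares of 24 are near the background.

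Of 30 upstream polarity and junction regulators, 29 were in the table and 22 were tested, 2 were called lower and 0 higher, and the median log2 fold change was 0.04. Dropping the fold minimum, 5 of the 22 passed as lower and 2 as higher, where all genes gave 13.3% and 10.1%. Whether this list differs from all tested genes was not tested. Fat1, an atypical cadherin of the family whose fly member acts upstream of Hippo, fell from 49.2 ± 0.114 RPKM to 22.7 ± 0.395 RPKM (SD, n = 2), or by a log2 fold change of -1.12 ± 0.056 (SE, adjusted p = 7.29e-14 by edgeR). At 1 nM it stood at 37.7 ± 1.17 RPKM and at 10 nM at 27.2 RPKM. The list genes under the filter on low values are outside the count of 0 higher. Among them, Crb2 and Dchs1 met the call as higher, by 1.86 and 1.27 (adjusted p = 0.0132 and 0.0485 by edgeR). Fat2, Fat3 and Fat4 had log2 fold changes of 1.18, 1.43 and 0.77 without being called, Crb1 had 0.28 and Amot -0.17. None of these untested genes exceeded 26 counts in any control or 100 nM library. Csnk1e, a casein kinase that marks YAP for degradation after LATS has acted, fell from 11.8 ± 0.0211 to 7.56 ± 0.184 RPKM (log2 fold change -0.64, adjusted p = 0.000127 by edgeR).

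Of 18 YAP and TAZ target genes other than the members, 10 were tested, 2 were called lower and 0 higher, and the median log2 fold change was -0.32. Among all tested genes 6.83% were called lower and 4.37% higher, and the difference from this small list was not tested. Nuak2, a kinase of the AMPK family, fell from 2.55 ± 0.738 to 0.996 ± 0.437 RPKM (log2 fold change -1.34, standard error 0.33, adjusted p = 0.0034 by edgeR), on 13 to 56 counts at these doses. Arhgef17 fell from 3.15 ± 0.307 to 2.07 ± 0.109 RPKM (log2 fold change -0.61, adjusted p = 0.00098 by edgeR). Among the 5 TEAD cofactor genes, 3 were tested and 0 were called, with Vgll3 at a log2 fold change of 0.97 ± 0.42 (SE, adjusted p = 0.0989 by edgeR) on 7 and 21 counts in the 0 nM and 30 and 26 in the 100 nM libraries.

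**Figure D4:**
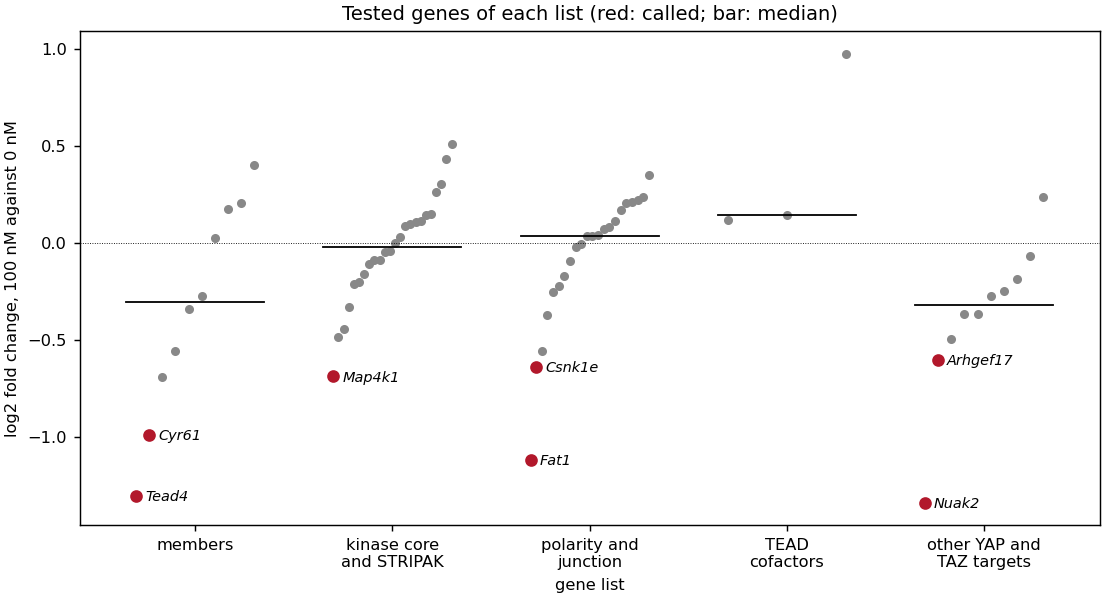
Log2 fold change at 100 nM against 0 nM (y axis) of each tested gene in 5 lists (x axis: the 10 members, the kinase core and STRIPAK, polarity and junction regulators, TEAD cofactors, and other YAP and TAZ targets), with genes called by edgeR in red and a bar at the median of each list. From left to right, 2 of 10, 1 of 24, 2 of 22, 0 of 3 and 2 of 10 tested genes were called. All of these were lower, beside 6.83% lower and 4.37% higher among all tested genes, and the difference was not tested. Genes under the filter on low values are not drawn, among them Crb2 and Dchs1, which met the call as higher. Cdx2, called higher, is in none of these lists. The medians are -0.31, -0.02, 0.04, 0.14 and -0.32 from left to right.

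Cdx2 and Gata3 are trophectoderm genes that depend on TEAD4 in the embryo. Cdx2 went from 10 and 4 counts at 0 nM to 64 and 60 (100 nM), a log2 fold change of 3.10 ± 0.41 (SE, adjusted p = 2.4e-06 by edgeR), whereas Gata3 had 28 and 23 counts without dTAG13 and 12 and 10 at the highest dose, a difference of -1.23 on the log2 scale (adjusted p = 0.0919 by edgeR). Cdx2 stood at 0.552 ± 0.352 RPKM without dTAG13 and at 4.76 ± 0.26 RPKM (SD, n = 2) at the highest dose, where Tead4 was lowest. Its mean was 0.978 RPKM at 1 nM and 1.66 RPKM at 10 nM, and testing needed an average of 1 RPKM. Cdx2 thus reached the tests through the doses where it was high, so its adjusted p describes the rise and is no separate support.

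For the 2 members called at 100 nM, the tested genes with the most similar profile were found by Pearson's r of log2(RPKM + 0.1) over the 12 libraries. Nearest to Tead4 were Ddah1 (r = 0.98), a dimethylarginine hydrolase, Pygb (r = 0.978), a glycogen phosphorylase, and Agpat2 (r = 0.975), an acyltransferase of phospholipid synthesis. Nearest to Cyr61 were Kdm3b (r = 0.966), a histone H3K9 demethylase, Pard6g (r = 0.965), a polarity protein, and Ccl25 (r = 0.96), a chemokine. All 6 had negative log2 fold changes at 100 nM, from -2.14 for Ccl25 to -0.48 for Pygb. These are the highest of 11378 values per member, and the 12 points share the dose order, so that any pair of genes that falls steadily with dose scores high.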

How the data were processed

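RNA-seq libraries were prepared from total RNA with a stranded SMART-Seq kit. The authors trimmed reads with Trim Galore, aligned them to mm10 with HISAT2 and counted pairs on exons per gene symbol with featureCounts 2.0.1, without strand and without multi-mapped pairs. The deposited counts are raw. RPKM and tests were computed here with R 4.3.3 and edgeR 4.0.16 (limma 3.58.1). RPKM used the deposited gene lengths and TMM factors. A gene entered the tests when its RPKM averaged 1 or more across the 12 libraries. A single model held the 6 conditions and no covariates (glmQLFit, glmQLFTest), and p-values were Benjamini-Hochberg adjusted over 11378 genes. The authors' methods name edgeR with a false discovery rate of 0.05 and a fold of 1.5, and the likelihood ratio test was an alternative, as was DESeq2 1.42.0. Intervals are 1.96 standard errors. The steps were tested on simulated counts.

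The members and gene lists were chosen with earlier results of these data known. Named genes are all members, list genes called at 100 nM, the 3 nearest genes by correlation for members called at 100 nM, and some other marker and list genes. The motifs searched were GGAATG and TGANTCA. Counts carry no molecular identifiers, so count ranges reflect reads and not molecules. The study describes 2 independent experiments. The p-values rest on the spread between the 2 libraries of a condition, estimated over all 6 conditions together and with other genes. Overlapping exons were taken from GENCODE M21. Gene symbols are those in the counts (Ctgf and Cyr61 are now Ccn2 and Ccn1).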

Additional observations from a re-analysis of the deposited data

How the results depend on the processing

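All 7 members called in the dose-order trend, and the calls of Tead4 and Cyr61 at 100 nM, kept direction and side of the threshold in every alternative run: likelihood ratio and DESeq2 tests, size factors, upper quartile or no factors, no filter, fits of fewer libraries, a replicate block and each library left out. The member count at 10 nM (2) was 1 without normalization factors, 5 with no fold minimum and 0 to 2 with single libraries left out. The count of 0 arose on omitting 0 nM replicate 2 or 10 nM replicate 2. The count at 100 nM (2) was 7 with no fold minimum. The count from 10 to 100 nM (1) was 0 to 1 with single libraries left out, with 0 on omitting 10 nM replicate 1 or 100 nM replicate 2. The log2 fold change of Lats2 at 100 nM was -0.0596 without the filter and -0.00082 to 0.042 with single libraries left out. Its slope was -0.016 without the filter, -0.0020 in the 8 libraries and -0.016 to 0.016 with single libraries left out, all smaller than its standard error. The replicate number served as a block only as a check, since it did not pair libraries (deviations of same-numbered libraries from their condition means correlated between -0.0948 and 0.0927, with 0 of 15 pairs over 0.1). With the replicate block 2 members were called at 10 nM, 2 at 100 nM, 1 from 10 to 100 nM and 7 in the trend. With log2(RPKM + 1), 2 of 3 nearest genes of each member were kept. Tead3 and Lats2 had fewer than 100 counts in each library, which limits what their comparisons can show.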
